A study of Mus musculus with 12 samples.

Results

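The 8 genes described here encode ligands of the tumour necrosis factor (TNF) superfamily: Fasl, Tnfsf10, Lta, Ltb, Tnf, Tnfsf8, Tnfsf11 and Tnfsf14. They were taken by symbol from the authors' deposited comparison table and joined by gene identifier to a table of read counts, where they are 8 of 56748 genes. They were proposed for how they moved with dichloroacetate (DCA), Lta in particular for moving in opposite directions in 2 experiments. Their DCA effects are therefore given as descriptions without p-values, and nothing is read from whether they were called. All 8 passed the filter on low counts that left 15688 genes for testing.

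Bulk RNA sequencing was done on CD8+ T cells of 6 mice that carry a T cell receptor transgene, expanded in cultures that began as whole spleen, with 3 mice in each experiment and 3 libraries in each of 4 groups. DCA inhibits the kinases that switch off pyruvate dehydrogenase. The groups, in culture medium with 10% serum and 50 ug/mL IL-2, were experiment 2 with DCA, experiment 2 untreated, experiment 1 with DCA and experiment 1 untreated. All groups shared 24 hours of stimulation with the peptide of their receptor (250 nM SIINFEKL for OT-1 or 1 uM gp100 for pmel-1), 6 days of expansion and a sort for CD8 on day 7, and the DCA arms received 5 mM DCA during the expansion. Each mouse supplied cells to both arms. In experiment 2 the labels name Pmel-1 mice, with the transgene Tg(TcraTcrb)8Rest/J on B6.Cg-Thy1a/Cy. In experiment 1 the titles also name Pmel-1 cells, but the tags for strain and genotype give OT-1, C57BL/6-Tg(TcraTcrb)1100Mjb/J. The protocol mentions a pair of technical batches. Experiment, strain tag and batch coincide and cannot be told apart. If the tags hold, the stimulating peptide and its concentration coincide with them too. Other spleen cells were present in the cultures before the sort.

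Ligands of this family are trimeric proteins, most of them anchored in the membrane, that bind receptors of the TNF receptor superfamily on neighbouring cells. Receptors with a death domain, such as Fas, can start caspases, and many receptors of the family recruit TRAF adaptors and activate NF-kB. On CD8+ T cells Fasl and Tnfsf10 are known as killing ligands, Tnf and Lta as inflammatory cytokines, and Tnfsf8, Tnfsf11 and Tnfsf14 as ligands that appear after stimulation. Their transcripts are known to be induced by T cell receptor signalling through NFAT, AP-1 and NF-kB, and Tnf mRNA is kept short-lived by proteins that bind its AU-rich element.

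Total counts ran from 28039699 to 41051066 per library. Transcripts of the 8 CD8 T cell markers, in counts-per-million units (CPM), summed to 5389 to 5574 with DCA and 6351 to 6868 untreated in experiment 2, and to 5205 to 5652 with DCA and 4723 to 5458 untreated in experiment 1. Of 3 CD4 T cell markers Zbtb7b exceeded 1 CPM, at 4.26 to 9.45 CPM in the 12 libraries, while Cd4 was at most 0.638 CPM and Foxp3 at most 0.237 CPM. The count of detected genes was 23635 to 26571 per library in experiment 2 and 18382 to 19551 in experiment 1. Mitochondrial genes took 2.11% to 2.40% of counts with DCA and 2.27% to 2.85% untreated in experiment 2, and 1.32% to 1.58% with DCA and 1.01% to 1.14% untreated in experiment 1. Of 10 B cell markers, 3 exceeded 1 CPM in any library. These were Ighm at 218.5 to 548.4 CPM, Cd79b at 12.6 to 38.26 CPM and Ighd at 1.68 to 20.97 CPM, each with counts in all 12 libraries. Ms4a1 was at most 0.0344 CPM and Pax5 at most 0.0974 CPM. The summed B cell markers were 495 to 591 CPM with DCA and 400 to 505 CPM untreated in experiment 2, and 368 to 438 CPM with DCA and 242 to 376 CPM untreated in experiment 1. Of 13 myeloid and dendritic markers 3 exceeded 1 CPM in any library. These were Cd68 at 6.16 to 27.35 CPM, Cd14 at most 3.15 CPM and H2-Aa at most 1.34 CPM, while S100a9 had no count in any library. The 13 markers summed to 17.1 to 21.5 CPM with DCA and 8.99 to 18.3 CPM untreated in experiment 2. In experiment 1 they summed to 11.3 to 32.0 CPM with DCA and 8.63 to 11.4 CPM untreated. Marker levels here are per total count. Levels of single genes below are CPM after TMM scaling, which adjusts the library sizes for differences in composition. In these bulk samples, fewer cells of a type and less RNA per cell cannot be told apart.

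**Figure D1:**
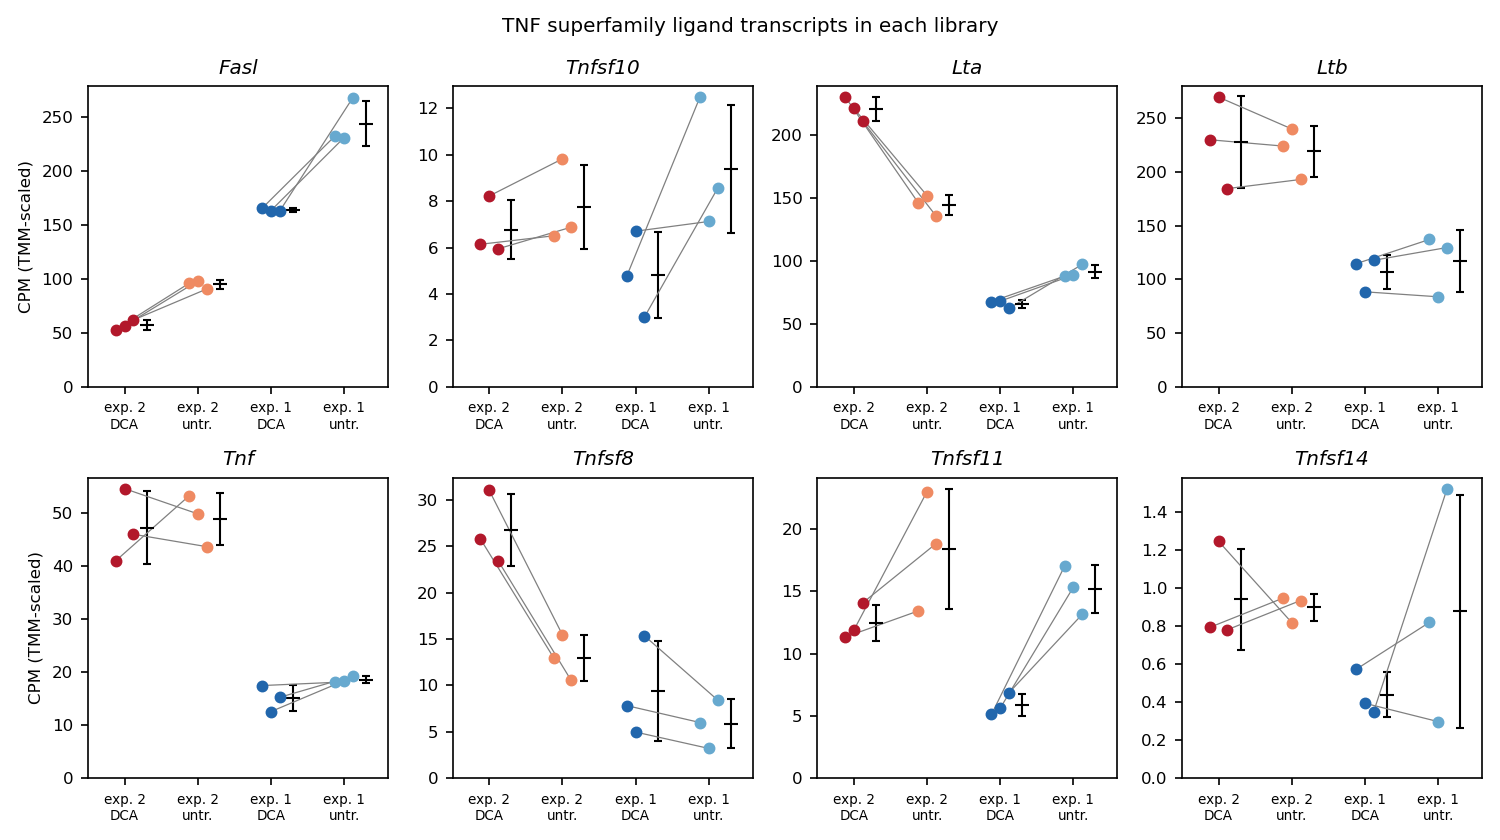
Transcript levels of the 8 ligands in each library. The vertical axes give TMM-scaled CPM, each point is 1 library, grey lines join the libraries of 1 mouse, and black bars give the mean and SD of 3 libraries; Lta lies at 211 to 230.4 CPM with DCA in experiment 2, above its untreated libraries, and at 62.3 to 68.1 CPM with DCA in experiment 1, below its untreated libraries.

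Of the killing ligands, Fasl (ENSMUSG00000000817.11) was lower with DCA in both experiments. Fasl encodes the ligand of the death receptor Fas. Fasl in experiment 2 had 53.2, 56.7 and 62.0 CPM with DCA, against 96.0, 98.2 and 90.7 CPM in untreated cells of mice 1 to 3. Fasl in experiment 1 had 166, 164 and 163 CPM with DCA, against 233, 231 and 268 CPM in untreated cells. No DCA library reached the lowest untreated library of its experiment, and every library of experiment 1 lay above every library of experiment 2. The Fasl log2 fold change was -0.73 (SE 0.08) in experiment 2, which is 1.66-fold lower, and -0.57 (SE 0.08) in experiment 1, which is 1.49-fold lower. Over both experiments it was -0.65 (SE 0.06), and Fasl was lower with DCA in 6 of 6 mice.

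Tnfsf10 (ENSMUSG00000039304.12), the gene of the death ligand TRAIL, was lower with DCA in each mouse, but by sizes that differed widely between mice. Tnfsf10 in experiment 1 had 4.77, 6.70 and 3.00 CPM with DCA, against 12.5, 7.12 and 8.55 CPM in untreated cells. These libraries did not overlap, and the gap between the highest DCA and the lowest untreated library was small, both from mouse 2. Tnfsf10 in experiment 2 had 6.14, 8.22 and 5.94 CPM with DCA, against 6.51, 9.82 and 6.88 CPM in untreated cells, and the groups overlapped. The Tnfsf10 log2 fold change was -0.19 (SE 0.29) in experiment 2 and -0.95 (SE 0.30) in experiment 1. Within mice of experiment 1 the log2 ratio of DCA to untreated was -1.38, -0.09 and -1.49.

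Lta, Tnf and Ltb stand beside each other on chromosome 17, in the order Ltb, Tnf and Lta, with no other coding gene between them in the GENCODE M21 annotation. Ltb is on the plus strand and the others are on the minus strand. The 250 bases before each start site are shown because Lta was chosen for its response and the others are its neighbours, with that of Fasl for comparison. They are RefSeq promoters of GRCm38.p6 matched by symbol (8 of 8 ligands matched), on the gene's own strand. Capitals mark matches to any of 4 motifs searched on both strands: the kappaB motif of NF-kB by name, the NFAT core GGAAAA, the AP-1 motif TGANTCA and the TATA box TATAAA. No marked matches overlap each other. The regions are chr17:35194257-35194506 for Ltb, chr17:35202008-35202257 for Tnf, chr17:35205352-35205601 for Lta and chr1:161788496-161788745 for Fasl.
Ltb: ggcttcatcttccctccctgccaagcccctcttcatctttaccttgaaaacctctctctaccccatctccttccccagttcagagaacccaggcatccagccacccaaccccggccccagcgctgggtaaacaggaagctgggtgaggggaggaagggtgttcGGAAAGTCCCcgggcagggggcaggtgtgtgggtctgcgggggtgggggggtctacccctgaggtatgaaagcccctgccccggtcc
Tnf: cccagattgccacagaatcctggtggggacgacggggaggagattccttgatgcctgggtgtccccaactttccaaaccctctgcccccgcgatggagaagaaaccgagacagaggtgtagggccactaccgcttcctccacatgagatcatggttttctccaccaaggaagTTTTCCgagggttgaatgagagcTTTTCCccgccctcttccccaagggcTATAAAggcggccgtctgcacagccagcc
Lta: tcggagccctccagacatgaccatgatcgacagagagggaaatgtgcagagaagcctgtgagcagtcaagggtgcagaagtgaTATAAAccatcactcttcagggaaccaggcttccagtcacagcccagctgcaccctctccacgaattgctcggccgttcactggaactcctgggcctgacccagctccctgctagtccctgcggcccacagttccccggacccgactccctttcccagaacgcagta
Fasl: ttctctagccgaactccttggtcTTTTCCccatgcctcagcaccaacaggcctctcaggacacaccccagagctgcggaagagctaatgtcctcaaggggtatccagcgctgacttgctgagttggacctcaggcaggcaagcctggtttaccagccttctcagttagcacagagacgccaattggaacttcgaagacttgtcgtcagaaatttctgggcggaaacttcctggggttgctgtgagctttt
Counting back from the start site, Ltb has a kappaB match that begins at position -87. Tnf has NFAT matches at -78 and -55 and a TATA box at -29. Lta has a TATA box sequence at -167 only, and Fasl an NFAT match at -227 only. Among 27025 promoter windows of the same 250 bases, 3.75% hold the kappaB motif, 20.6% the NFAT core, 6.87% the AP-1 motif and 13.0% the TATA box. Of the other ligands, Tnfsf11 has a TATA box at -32, Tnfsf14 an AP-1 match at -160, and Tnfsf8 and Tnfsf10 no match in this window. A match is a run of letters and not a measured binding site.

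Lta (ENSMUSG00000024402.6) was higher with DCA in experiment 2 and lower with DCA in experiment 1. It encodes lymphotoxin alpha, which is secreted as a trimer that binds the TNF receptors or is held at the membrane by lymphotoxin beta. Lta in experiment 2 had 230.4, 221 and 211 CPM with DCA, against 146, 152 and 136 CPM in untreated cells. Lta in experiment 1 had 67.7, 68.1 and 62.3 CPM with DCA, against 87.9, 88.8 and 97.3 CPM in untreated cells. Neither pair of groups overlapped. The Lta log2 fold change was 0.61 (SE 0.08) in experiment 2, 1.53-fold higher, and -0.47 (SE 0.08) in experiment 1, 1.38-fold lower. Their difference, experiment 2 minus experiment 1, was 1.08 (SE 0.11), and the value over both experiments was 0.08 (SE 0.15). The within-mouse log2 ratios were 0.66, 0.54 and 0.63 in experiment 2 and -0.38, -0.38 and -0.64 in experiment 1. These directions are what the gene was chosen for. Across 20 settings of scaling, filter, test and left-out libraries the value stayed between 0.52 and 0.67 in experiment 2 and between -0.50 and -0.31 in experiment 1, where -0.31 came from cyclic loess.

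Opposite directions in every mouse of the experiments were found for 637 of 15688 genes, 4.06%, and Lta was the 1 ligand of the 8 among them. The summed B cell markers given above reached higher with DCA in both experiments, with ranges that overlapped slightly. The summed CD8 T cell markers were lower with DCA in experiment 2 without overlap and reached higher with DCA in experiment 1, and the mitochondrial share was higher with DCA in experiment 1 without overlap and overlapped in experiment 2. The part of these levels in the Lta values was not tested. The annotated microRNA gene Mir6974 overlaps Lta on the same strand and had 9 counts in all 12 libraries together.

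Ltb (ENSMUSG00000024399.6), the gene of lymphotoxin beta, differed little between the arms. Ltb in experiment 2 had 229.8, 269.5 and 184 CPM with DCA, against 224, 239.9 and 193 CPM in untreated cells. Ltb in experiment 1 had 115, 88.4 and 118 CPM with DCA, against 137, 83.8 and 129.6 CPM in untreated cells. The groups overlapped in both experiments, and Ltb was higher with DCA in 3 of 6 mice. The Ltb log2 fold change was 0.06 (SE 0.17) in experiment 2 and -0.13 (SE 0.18) in experiment 1. Over both experiments it was -0.03 (SE 0.12) with TMM scaling and 0.09 (SE 0.13) with cyclic loess normalization, so its sign depended on the scaling.

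Tnf (ENSMUSG00000024401.15), the founding cytokine of the family, varied with DCA in experiment 2 and was lower with DCA in all 3 mice of experiment 1. Tnf in experiment 2 had 41.0, 54.6 and 46.0 CPM with DCA, against 53.2, 49.9 and 43.7 CPM in untreated cells, and these overlapped. Tnf in experiment 1 had 17.5, 12.6 and 15.3 CPM with DCA, against 18.1, 18.4 and 19.3 CPM in untreated cells, with no overlap. The Tnf log2 fold change was -0.05 (SE 0.14) in experiment 2 and -0.30 (SE 0.14) in experiment 1.

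**Figure D2:**
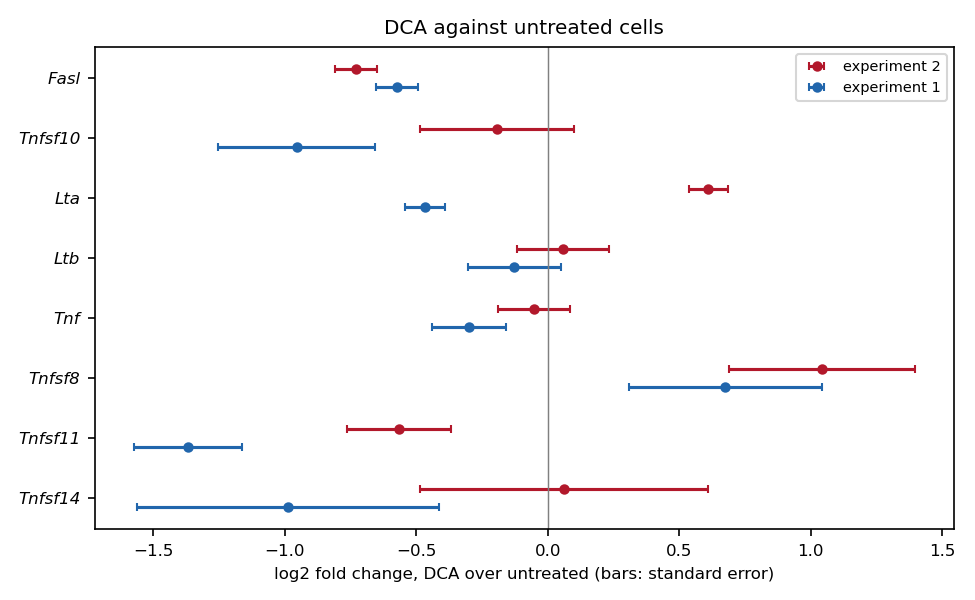
DCA effects on the 8 ligands in each experiment. The horizontal axis is the log2 fold change of DCA over untreated cells, points are estimates from 1 fit over 12 libraries and bars are standard errors; Lta is at 0.61 in experiment 2 and at -0.47 in experiment 1, and Fasl is below 0 in both.

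Tnfsf8 (ENSMUSG00000028362.3) was higher with DCA in 6 of 6 mice. It encodes the ligand of CD30, a receptor found on activated lymphocytes. Tnfsf8 in experiment 2 had 25.8, 31.0 and 23.5 CPM with DCA, against 13.0, 15.5 and 10.5 CPM in untreated cells, with no overlap. Tnfsf8 in experiment 1 had 7.83, 4.98 and 15.4 CPM with DCA, against 6.01, 3.22 and 8.44 CPM in untreated cells. The arms overlapped there, and mouse 3 had the highest and mouse 2 the lowest level in each arm. The Tnfsf8 log2 fold change was 1.04 (SE 0.35) in experiment 2 and 0.68 (SE 0.37) in experiment 1. With a term for each mouse it was 1.05 (SE 0.15) in experiment 2 and 0.63 (SE 0.16) in experiment 1. Without the DCA library of mouse 3 the value in experiment 1 was 0.13, without the untreated library of mouse 2 it was 0.37, and without that of mouse 3 it was 1.03.

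Tnfsf11 (ENSMUSG00000022015.9), the gene of RANKL, which drives osteoclast formation and the growth of lymph node tissue, was lower with DCA in 6 of 6 mice. Tnfsf11 in experiment 2 had 11.3, 11.9 and 14.1 CPM with DCA, against 13.4, 23.0 and 18.8 CPM in untreated cells. The highest DCA library of that experiment exceeded the lowest untreated library, so the groups overlapped. Tnfsf11 in experiment 1 had 5.12, 5.63 and 6.86 CPM with DCA, against 17.0, 15.3 and 13.1 CPM in untreated cells, with no overlap. The Tnfsf11 log2 fold change was -0.57 (SE 0.20) in experiment 2, between -0.81 without the untreated library of mouse 1 and -0.41 without that of mouse 2, and -1.37 (SE 0.21) in experiment 1, 2.58-fold lower. Untreated libraries of the experiments overlapped, while every DCA library of experiment 2 lay above those of experiment 1.

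Tnfsf14 (ENSMUSG00000005824.8), the gene of LIGHT, was near the limit of measurement, with 9 to 45 counts per library. Tnfsf14 in experiment 2 had 0.793, 1.25 and 0.781 CPM with DCA, against 0.947, 0.818 and 0.934 CPM in untreated cells. Tnfsf14 in experiment 1 had 0.573, 0.394 and 0.351 CPM with DCA, against 0.819, 0.298 and 1.52 CPM in untreated cells. Both pairs of groups overlapped. The Tnfsf14 log2 fold changes of 0.06 (SE 0.55) in experiment 2 and -0.99 (SE 0.58) in experiment 1 had large standard errors. Counts were few and differed between mice, from 10 to 43 in the untreated libraries of experiment 1, so neither value is read as a difference. Without the untreated library of mouse 3 the value in experiment 1 was -0.33.

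Counts of calls are given beside those of all genes. Nothing is read from them, or from the number of settings that made a call, since the members were chosen from these contrasts. Over both experiments 16.8% of the tested genes had an adjusted p under 0.05 in edgeR's quasi-likelihood test, and so did 3 ligands, Tnfsf8 higher and Fasl and Tnfsf11 lower. Tnfsf8 was called in 13 of 20 settings and the other ligands named there in 20 of 20. The Tnfsf8 call was lost under cyclic loess, without the DCA library of mouse 1 or 2 or the untreated library of mouse 1 or 3 of experiment 2, and without the DCA library of mouse 3 or the untreated library of mouse 2 of experiment 1. In experiment 2 the share was 4.57% of all genes, and 2 ligands were called, Lta higher (2.37% of all genes were) and Fasl lower (2.2% were). In experiment 1 it was 16.7% of all genes, and 4 ligands were called, Fasl, Lta, Tnfsf10 and Tnfsf11, all lower. Tnfsf10 was called in 10 of 20 settings, being lost without any 1 library of experiment 2 and without the DCA or the untreated library of mouse 1 or mouse 3 of experiment 1, and the others were called in 20 of 20. With a term for each mouse Tnfsf8 was also called in each experiment. By direction, 5.67% of all genes were higher and 11% lower there. For the difference of the DCA effects it was 0.331%, or 52 genes (0.28% higher and 0.051% lower), among them Lta, and 24 genes with a term for each mouse. Without any 1 library of experiment 2 those 52 genes became 1 to 7. Leaving out a library of experiment 1 gave 143 for the DCA library of mouse 2, and 18, 11 and 217 for the untreated libraries of mice 1, 2 and 3. The 717 genes called in experiment 2 became 260 and 271 without its DCA library of mouse 1 or 2, and 210 without its untreated library of mouse 2. Groups did not overlap between the arms for 30.2% of all genes in experiment 2, where this held for 3 ligands, and for 29.3% in experiment 1, where it held for 5. The same direction in 6 of 6 mice was found for 19.1% of all genes and for 4 ligands, Tnfsf8 higher and Fasl, Tnfsf10 and Tnfsf11 lower. In the authors' deposited table the log2 fold change of DCA against untreated was -0.647 for Fasl, 0.871 for Tnfsf8, -0.951 for Tnfsf11 and 0.0811 for Lta.

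The order of the ligand levels differed between the experiments. For comparison between genes, levels were divided by the gene length of the authors' deposited table, giving CPM per kilobase. In experiment 2 with DCA, Lta led with 160 ± 7.04 CPM per kilobase (SD, n = 3), followed by Ltb with 150.3 ± 28.1 CPM per kilobase, and their libraries overlapped. Fasl with 29.6 ± 2.30 and Tnf with 28.8 ± 4.20 CPM per kilobase came next and also overlapped each other. In untreated cells of experiment 2 Ltb led with 144 ± 15.8 CPM per kilobase, above Lta with 105 ± 5.85, Fasl with 49.0 ± 1.99 and Tnf with 29.9 ± 2.96, and no neighbours in the order overlapped.

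In experiment 1 Fasl came first in both arms. With DCA it had 84.7 ± 0.737 CPM per kilobase, above Ltb with 70.5 ± 10.6 and Lta with 47.7 ± 2.34. In untreated cells it had 126 ± 10.8 CPM per kilobase, above Ltb with 77.0 ± 19.0 and Lta with 66.0 ± 3.72, which overlapped. Tnf had 9.22 ± 1.499 CPM per kilobase with DCA and 11.3 ± 0.374 untreated. The remaining ligands were below 10.3 CPM per kilobase in every library, and Tnfsf14 was lowest by its mean in each of the 4 groups. Tnfsf8 stood above Tnfsf11 by its mean in experiment 2 with DCA only, where their libraries overlapped.

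**Figure D3:**
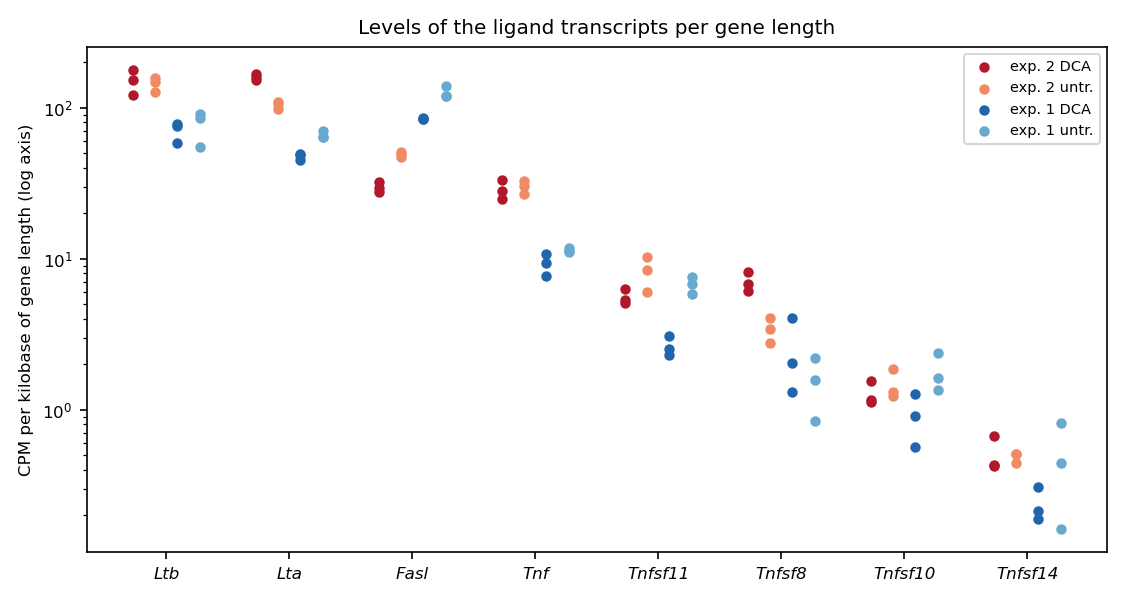
Levels of the ligands per kilobase of gene length. The vertical axis is CPM per kilobase on a log scale and each point is 1 of the 12 libraries, coloured by group; Fasl is highest in experiment 1 (84.7 with DCA and 126 untreated, means) and stands below Lta and Ltb in experiment 2.

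The comparison of the experiments in the same arm was not itself used to choose the ligands, apart from Lta, and was tested for the other 7. The value in DCA cells is the value in untreated cells plus the difference of the DCA effects. It is therefore not independent of the DCA effects for which the ligands were chosen. The value in untreated cells uses the untreated libraries of those effects and is not independent of them either. Fasl was lower in experiment 2, while Ltb, Tnf and Tnfsf8 were higher. In DCA cells, Fasl had a log2 fold change of experiment 2 over experiment 1 of -1.52 (SE 0.08, adjusted p = 1.04e-09), and in untreated cells -1.36 (SE 0.08, adjusted p = 2.84e-09). Tnf was at 1.64 (SE 0.14, adjusted p = 1.74e-07) in DCA cells and at 1.40 (SE 0.14, adjusted p = 8.42e-07) in untreated cells. Ltb was at 1.09 (SE 0.18, adjusted p = 0.000109) in DCA cells and 0.91 (SE 0.18, adjusted p = 0.000539) in untreated cells, the last of which was 1.38 under cyclic loess. For these 3 genes and Tnfsf8 the libraries of the experiments did not overlap in either arm. The share of all tested genes without overlap in both arms was not computed. By single arm, there was no overlap for 61.5% of all tested genes in DCA cells, and for 7 ligands. In untreated cells there was none for 59.9% of all tested genes and for 5 ligands. Both ligand counts include Lta.

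Tnfsf8 was at 1.51 (SE 0.36, adjusted p = 0.00267) in DCA cells and at 1.15 (SE 0.37, adjusted p = 0.0166) in untreated cells, the second of which became 0.84 (adjusted p = 0.0722) without the untreated library of mouse 2 of experiment 1. Tnfsf11 differed in DCA cells, at 1.08 (SE 0.20, adjusted p = 0.000419). In untreated cells its value was 0.28 (SE 0.20, adjusted p = 0.253), and 0.55 (adjusted p = 0.0298) without the untreated library of mouse 1 of experiment 2. Tnfsf10 did not pass, at 0.49 (adjusted p = 0.189) in DCA cells and -0.28 (adjusted p = 0.451) in untreated cells, although the DCA value was 0.80 (adjusted p = 0.0470) without the DCA library of mouse 2 of experiment 1. Tnfsf14 was at 1.09 (SE 0.57, adjusted p = 0.126) in DCA cells and 0.04 (SE 0.55, adjusted p = 0.959) in untreated cells. Lta, not tested here, was at 1.74 (SE 0.08) in DCA cells and 0.66 (SE 0.08) in untreated cells, or 1.04 in untreated cells under cyclic loess.

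Called between the experiments were 5 of 7 ligands in DCA cells, beside 52.3% of all tested genes, and 4 of 7 in untreated cells, beside 51.8%. Such shares are common to the whole transcriptome in this comparison and are no property of the ligands. The median log2 fold change of all genes was 0.11 in each arm with TMM scaling, and with cyclic loess it was -0.02 in untreated cells and -0.03 in DCA cells. Against that median, the values of Ltb, Tnf and Tnfsf8 were higher and that of Fasl lower under both scalings. Mice are nested in experiments, so no term per mouse could be fitted. Of the natural killer cell markers, Klrb1c was at 0.0579 to 1.34 CPM with DCA and 0.522 to 1.13 CPM untreated in experiment 2, and at 8.36 to 11.7 CPM with DCA and 4.88 to 11.4 CPM untreated in experiment 1. The killer cell marker Ncr1 stayed at or below 0.132 CPM and Klra8 at or below 0.0579 CPM in all libraries. The part of these levels, of the B cell markers and of the larger count of detected genes in experiment 2 was not tested.

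**Figure D4:**
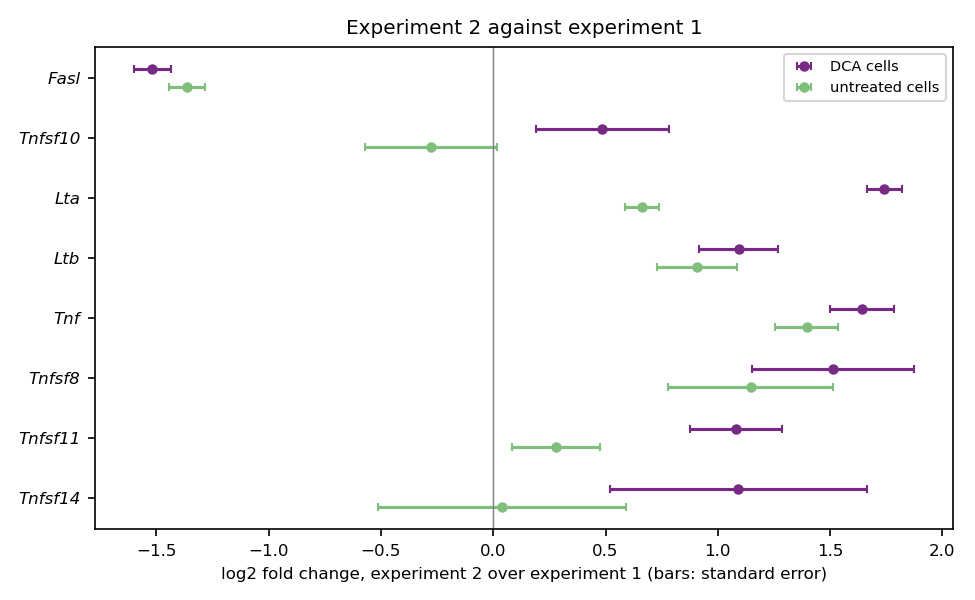
Ligand transcripts in experiment 2 against experiment 1. The horizontal axis is the log2 fold change of experiment 2 over experiment 1, drawn for DCA cells and for untreated cells with standard errors as bars; Fasl lies at -1.52 and -1.36, and Tnf at 1.64 and 1.40.

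For Lta and Fasl, the genes most alike over the 12 libraries were ranked by Pearson's correlation of log2 CPM centred within each experiment, over 7913 genes whose log2 CPM averaged 3 or more. These values are descriptions, since the points share libraries and arms. A gene that ranks high in this way must follow the arm differences of Lta or Fasl. The directions given for Cd44 and Trbc2 therefore come with the ranking and are no separate observation. The genes most like Lta were Bloc1s6 (r = 0.916), Fuca1 (0.909), Cd44 (0.885), Snhg15 (0.882) and Trnau1ap (0.879). Cd44 encodes an adhesion receptor that marks activated T cells, and its log2 fold change was 0.70 in experiment 2 and -0.41 in experiment 1. The genes most like Fasl were Psmf1 (0.976), Vmp1 (0.975), ENSMUSG00000120992 (0.969), Trbc2 (0.968) and Fgl2 (0.968). Trbc2 encodes a constant part of the T cell receptor beta chain and was at -0.66 in experiment 2 and -0.40 in experiment 1. Among the ligands themselves the highest correlation was that of Fasl with Tnfsf11 (0.780) and the lowest that of Fasl with Tnfsf8 (-0.607), while Lta had 0.215 with Ltb and 0.291 with Tnf over the same 12 libraries.

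The receptors and the signalling genes around these ligands were examined from 7 lists of 78 genes, of which 70 were tested. They were chosen with earlier results of these data known. For DCA over both experiments, 15 of the 70 were called, 10 higher and 5 lower, beside 7.01% of all tested genes higher and 9.8% lower. The median log2 fold change was 0.04 for the lists and -0.02 for all tested genes. The adjusted p-values below are over all 15688 genes.

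Receptors of the ligands gave 3 higher and 1 lower call of 10 tested, with a median of 0.29. Fas, the receptor of Fasl, rose with DCA in 6 of 6 mice while its ligand was lower in the same 6. Fas had 40.4 ± 0.853 CPM with DCA and 21.1 ± 5.37 CPM untreated in experiment 2, and 14.6 ± 3.61 CPM with DCA and 6.03 ± 2.99 CPM untreated in experiment 1 (SD, n = 3), with a log2 fold change of 1.10 (SE 0.20, adjusted p = 0.00189) over both experiments. Tnfrsf8, the gene of CD30, rose by 1.31 (SE 0.19, adjusted p = 0.000472), higher in 6 of 6 mice like its ligand Tnfsf8. It had 79.2 ± 8.84 CPM with DCA and 29.2 ± 6.47 CPM untreated in experiment 2, and 12.2 ± 4.04 CPM with DCA and 5.42 ± 2.09 CPM untreated in experiment 1.

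Tnfrsf10b, the death receptor of TRAIL, rose by 0.87 (SE 0.18, adjusted p = 0.00443), again in 6 of 6 mice, while Tnfsf10 was lower in each of them. It had 8.01 ± 1.17 CPM with DCA and 3.602 ± 0.750 CPM untreated in experiment 2, and 6.68 ± 0.488 CPM with DCA and 4.47 ± 1.12 CPM untreated in experiment 1. Tnfrsf11b, the gene of osteoprotegerin, a soluble decoy receptor of RANKL and TRAIL, fell by 1.11 on the log2 scale (SE 0.32, adjusted p = 0.0278), lower in 6 of 6 mice. It had 1.63 ± 0.776 CPM with DCA and 4.16 ± 2.72 CPM untreated in experiment 2, and 7.79 ± 1.21 CPM with DCA and 14.5 ± 3.68 CPM untreated in experiment 1. That call was lost in 7 of the 12 fits that left out 1 library, with adjusted p up to 0.0668. These left out, from experiment 2, the DCA library of mouse 2 or 3 or the untreated library of mouse 1 or 2, and from experiment 1, the DCA library of mouse 1 or the untreated library of mouse 1 or 2.

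The TNF receptor genes Tnfrsf1b, at 0.13 (adjusted p = 0.598), and Tnfrsf1a, at 0.14 (adjusted p = 0.573), did not pass, nor did Tnfrsf14, the receptor of LIGHT, at 0.43 (adjusted p = 0.372). Ltbr, the receptor of membrane lymphotoxin, had 0 to 24 counts per library, and its value of -0.87 (SE 0.94, adjusted p = 0.592) was not informative. Tnfrsf11a, the receptor of RANKL, had 0 to 15 counts per library and was not tested. The decoy receptors of TRAIL in mouse, Tnfrsf22 and Tnfrsf23, were at 0.16 and 0.66 and did not pass.

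**Figure D5:**
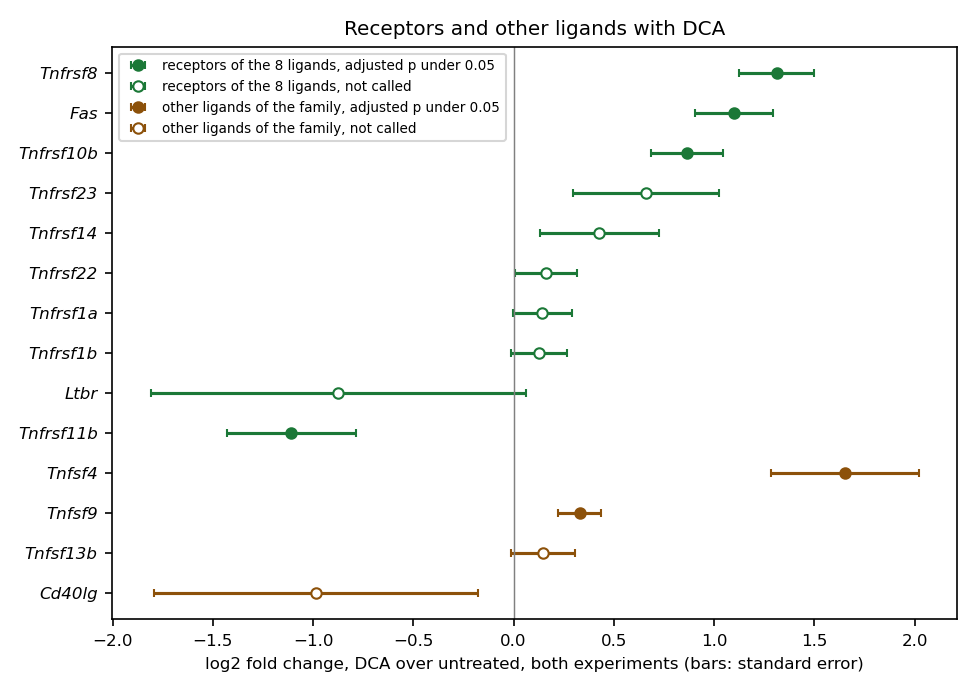
Receptors of the 8 ligands and other ligands of the family with DCA. The horizontal axis is the log2 fold change of DCA over untreated cells over both experiments, bars are standard errors, and filled points had an adjusted p under 0.05; Tnfrsf8 (1.31), Fas (1.10) and Tnfrsf10b (0.87) are higher and Tnfrsf11b (-1.11) is lower with DCA.

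Other ligands of the family gave 2 higher calls of 4 tested. Tnfsf4, the gene of OX40 ligand, rose by 1.65 (SE 0.37, adjusted p = 0.00695), higher in 6 of 6 mice. It had 8.47 ± 1.34 CPM with DCA and 1.70 ± 1.13 CPM untreated in experiment 2, and 4.71 ± 2.31 CPM with DCA and 2.38 ± 0.260 CPM untreated in experiment 1. Tnfsf9, the gene of 4-1BB ligand, was at 0.33 (SE 0.11, adjusted p = 0.0485), a call lost with a term for each mouse (adjusted p = 0.0971) and made in 5 of 20 settings, with adjusted p between 0.0221 and 0.112. Cd40lg, the ligand of CD40, had 0 to 40 counts per library and was at -0.98 (adjusted p = 0.462). Cd70, the ligand of CD27, had 0 to 6 counts per library and was not tested, and Eda, Tnfsf12, Tnfsf13, Tnfsf15 and Tnfsf18 were not tested either.

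Of 6 tested genes that release ligands from the membrane, 1 rose and none fell: Rhbdf2, which carries the protease ADAM17 to the cell surface, was at 0.39 (SE 0.12, adjusted p = 0.0313). Its adjusted p was 0.0640 with no filter on low counts. It was 0.0568 to 0.0799 without the DCA library of mouse 2 or the untreated library of mouse 1 or 2 of experiment 2, or without the DCA library of mouse 1 or the untreated library of mouse 3 of experiment 1. Of 14 death signalling genes, 2 fell and none rose. Mlkl, the effector of necroptosis, fell by 0.45 on the log2 scale (SE 0.10, adjusted p = 0.00749), and was lower in 5 of 6 mice. Tradd, the adaptor of TNF receptor signalling, fell by 0.32 (SE 0.07, adjusted p = 0.00877), lower in 6 of 6 mice. By experiment, Mlkl was at -0.20 in experiment 2 and -0.70 in experiment 1, and Tradd at -0.17 and -0.47. For the difference of the DCA effects, 0 of the 70 listed genes were called. The 18 NF-kB genes gave 2 higher calls and 1 lower. Map3k14, the kinase that starts the noncanonical NF-kB pathway, rose by 0.80 (SE 0.20, adjusted p = 0.0144), and Nfkbib, an inhibitor of NF-kB, fell by 0.44 (SE 0.12, adjusted p = 0.0181). By experiment, Map3k14 was at 0.79 in experiment 2 and 0.81 in experiment 1, Nfkbib at -0.16 and -0.72, and Nfkb1 at 0.38 and 0.02. Over both experiments Nfkb1 was at 0.20 (SE 0.07, adjusted p = 0.0497). Its call was lost with a term for each mouse (adjusted p = 0.103) and made in 8 of 20 settings, with adjusted p between 0.00216 and 0.103.

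Of 8 transcription factor genes linked to the ligands 1 rose, Foxo3, a forkhead factor, at 0.62 (SE 0.12, adjusted p = 0.00361), higher in 6 of 6 mice. Of 10 mRNA decay genes 1 rose and 1 fell. Zc3h12d, of the Regnase family of RNA-degrading enzymes, rose by 0.75 (SE 0.16, adjusted p = 0.00514). Hnrnpd, which binds AU-rich elements, was at -0.28 (SE 0.07, adjusted p = 0.0156), lost without any 1 of the 6 libraries of experiment 2 (adjusted p = 0.0545 to 0.0774) and under cyclic loess (0.153). Foxo3, Zc3h12d, Map3k14, Nfkbib, Mlkl, Tradd, Tnfsf4, Tnfrsf8, Fas and Tnfrsf10b were called in 20 of 20 settings that kept a term for experiment or mouse or group means.

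Between the experiments, in untreated cells, 42 of the 70 listed genes were called, 32 higher and 10 lower in experiment 2, beside 26.7% of all tested genes higher and 25.2% lower. The median was 0.30 for the lists and 0.11 for all tested genes. Of the 18 NF-kB genes 11 were higher and none lower, among them Rela, the p65 subunit, at 1.62 (SE 0.12, adjusted p = 1.87e-08), and Traf1, an NF-kB target and adaptor, at 1.69 (SE 0.14, adjusted p = 1.17e-07). Of the receptors 5 were higher and 1 lower. Among the 5 was Ltbr, at 3.89 (SE 1.46, adjusted p = 0.0406), a call made in 9 of 18 settings. Ltbr had 0 to 1 counts per untreated library of experiment 1. Tnfrsf8 was at 2.42 (SE 0.28, adjusted p = 3.27e-06), Tnfrsf1a at 1.75 (SE 0.21, adjusted p = 4.72e-06) and Tnfrsf11b at -1.81 (SE 0.46, adjusted p = 0.00388). Fas was higher in experiment 2, at 1.80 (SE 0.28, adjusted p = 7.83e-05), and Fasl lower, as given above.

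The ligand release genes gave 4 higher and 0 lower calls of 6, led by Frmd8, a partner of the iRhom proteins, at 1.76 (SE 0.16, adjusted p = 2.03e-07), and Sppl2b, a membrane protease that cuts TNF, at 1.88 (SE 0.19, adjusted p = 7.79e-07). Death signalling gave 6 higher and 3 lower calls of 14. Ripk3, the kinase of necroptosis, was at 1.75 (SE 0.13, adjusted p = 2.34e-08), while Mlkl was at -0.73 (SE 0.11, adjusted p = 5.41e-05) and Bid at -0.69 (SE 0.15, adjusted p = 0.00123). Of the other ligands Tnfsf13b, the gene of BAFF, was at 1.40 (SE 0.23, adjusted p = 0.000121) and Tnfsf9 at -0.75 (SE 0.14, adjusted p = 0.00031).

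Of the transcription factor genes 3 of 8 were higher and none lower. Egr1, an immediate early gene of receptor signalling, was at 6.13 (SE 0.63, adjusted p = 1.04e-06), with 128 ± 81.7 CPM in experiment 2 and 1.80 ± 0.686 CPM in experiment 1 (SD, n = 3 untreated). Nfatc1 was at 0.85 (SE 0.15, adjusted p = 0.000181). The mRNA decay genes gave 2 higher and 5 lower calls of 10. Zfp36, whose protein destabilises Tnf mRNA in mouse macrophages, was at 2.95 (SE 0.22, adjusted p = 2.90e-08). The part of Zfp36 in the Tnf levels was not tested. Zc3h12a was at 1.18 (SE 0.33, adjusted p = 0.00806; 0.0949 with no filter on low counts), Hnrnpd at -1.38 (SE 0.09, adjusted p = 7.82e-09) and Rc3h1 at -0.81 (SE 0.14, adjusted p = 0.000196). Experiment, strain tag and batch, and the stimulating peptide if the tags hold, coincide for each of these values too.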

How the data were processed

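Bulk RNA sequencing libraries came from sorted CD8+ T cells, with cDNA made by a Takara SmartSeq kit in 15 cycles, per the labels' protocols. The authors deposited raw read counts per gene, and these counts are not normalized. The authors also deposited a comparison table with gene length in bases, log2 fold changes, p-values and false discovery rates. The submitters' processing notes name the build GRCm39 with STAR 2.7.10a, fastp 0.23.2 and edgeR 3.36.0; for the counter, the annotation and strandedness the sources used here give nothing. Symbols came from the deposited table, which holds 15067 genes, and for all other identifiers from a reference list of gene names.

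The test was run in R 4.3.3 with edgeR 4.0.16 on the counts (TMM scaling, filterByExpr over the 4 groups, quasi-likelihood test, Benjamini-Hochberg adjustment over 15688 genes, threshold 0.05). The DCA effect over both experiments came from a fit with terms for experiment and treatment, and the other comparisons from a fit of 4 group means. The standard error of a log2 fold change was taken as its size over the root of F. Alternatives were limma 3.58.1, DESeq2 1.42.0, other scalings and filters, a term per mouse and leaving out each library. The 8 members and the gene lists were chosen with earlier results of these data known. Genes named from the lists were up to 3 per direction and list for DCA and up to 2 between the experiments, by adjusted p, with Fas, Tnfrsf1b, Ltbr, Tnfrsf14, Cd40lg and Cd70 always named. Some genes that this rule names are not reported here. Tnfrsf1a, Tnfrsf11a, Tnfrsf22 and Tnfrsf23 in the DCA comparison were named outside this rule after their values were seen.

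The pairing of arms comes from the series' design text, in which cells of each mouse entered both arms. Deviations from group means correlated at 0.0443 to 0.0834 between libraries of the same mouse and at -0.0689 to -0.00438 between different mice. Deviations within a group cancel by construction. Positive values for the same mouse therefore force negative values on average between different mice. Replicates of a group differed beyond sampling noise, with a chi-square per degree of freedom of 11.7 to 32.9. Depth limits the precision of genes with few counts, and reads are not independent molecules. The procedure was tested on simulated data.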

Additional observations from a re-analysis of the deposited data

Results flagged for a closer look

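Lta differed in direction between the experiments. Its mean within-mouse log2 ratio of DCA to untreated was 0.611 in experiment 2, where all 3 mice were above 0, and -0.467 in experiment 1, where all 3 mice were below 0. No p-value is given for the difference, and nothing is read from its being called, because Lta was chosen for these opposite directions.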

How the results depend on the processing

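Without a term for experiment, DCA over both experiments called 46 genes in place of 2638, and 0 in place of 15 listed pathway genes. In experiment 2, where 717 genes were called, DESeq2 called 1512, no filter on low counts 1116, and fits without 1 library 210 to 824. For the difference of the DCA effects, where 52 genes were called, DESeq2 called 451, no filter 566 and cyclic loess 30, and fits without 1 library called 1 to 217. A term per mouse, the replicate block, called 24 genes for that difference, 2094 for DCA over both experiments, 544 in experiment 2 and 2349 in experiment 1, and 13 of the listed pathway genes. No paired analysis was possible for experiment 2 against experiment 1 because each mouse belongs to 1 experiment. The share of called genes that were higher with DCA was 41.7% with TMM and 54.2% with cyclic loess over both experiments, 51.9% and 64.4% in experiment 2, and 33.9% and 51.0% in experiment 1, where it was 48.6% with a filter at 5 CPM in 3 libraries. The value of Tnfsf14 for experiment 2 against experiment 1 in untreated cells, 0.04, was -0.20 with cyclic loess and ranged from -0.38 to 0.70 without 1 library, being -0.0021 without exp1_untreated replicate 1 and -0.38 without exp1_untreated replicate 2. In the tested comparisons of the experiments these were the 3 values of the ligands that reversed, 2 passed the threshold (Tnfsf10 in DCA cells and Tnfsf11 in untreated cells) and 1 lost it (Tnfsf8 in untreated cells). Among the DCA effects and the Lta values, for which no p-values are given, 33 recomputed values moved by more than the spread between replicates. DCA calls of ligands that depended on the setting were those of Tnfsf8 over both experiments (made in 13 of 20 settings), in experiment 2 (3) and in experiment 1 (2), of Tnfsf10 in experiment 1 (10) and over both (2), and of Tnfsf11 in experiment 2 (2). The causes were not tested.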
